A study of Rattus norvegicus with 12 samples.

Results

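A set of 38 genes of macrophages and other myeloid cells was followed through left atrium and left ventricle of rats with a surgical shunt from the aorta to the vena cava, which sends extra blood volume through the heart. The genes were chosen by name, with earlier results of these data known. A probe set of the array was taken for a gene where the platform annotation gave it that gene symbol alone, older synonyms included. Of the 38 genes, 35 had such a probe set (43 probe sets of 31099 on the array). Of these 35, 33 genes stood above the floor set for dim probe sets, a mean log2 value of 4.01, among 10606 genes tested in all. Adgre1, the gene of a surface antigen widely used to mark macrophages in mice, and Fcgr2b, an inhibitory receptor for the constant part of antibodies, lay below it, at means of 3.60 and 3.78 over all arrays. The transcription factor gene Spi1 and the scavenger receptor gene Msr1 had no probe set of their own, and Fcgr2a, a receptor for antibodies, had only 2 probe sets shared with another gene, so these 3 were not analysed here.

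The 12 arrays held 4 groups of 3: left atrial appendage from shunt-operated rats, left atrial appendage from sham-operated rats, left ventricular free wall from shunt-operated rats and left ventricular free wall from sham-operated rats. All rats were male Sprague-Dawley animals of 225 to 275 g, and tissue was taken 28 days after either operation. Each array carried RNA of 1 pool of 2 tissues, described in the sources as a biological replicate, so every value is a mean over animals and the number of pools limits the precision. Atrial and ventricular tissue was separated cleanly by the regulatory light chains of heart muscle. Myl7, the atrial form, lay at 13.68 to 13.85 on the atrial arrays and 5.91 to 8.55 on the ventricular arrays, and Myl2, the ventricular form, lay at 4.16 to 5.67 on the atrial arrays and 13.61 to 13.70 on the ventricular arrays.

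Macrophages live in the heart among the muscle cells, where they clear dying cells and debris, survey vessels and shape the connective tissue, and their number is held up by growth factors acting on the receptor encoded by Csf1r and by monocytes arriving from the blood. They engulf antibody- or complement-coated particles through Fc and complement receptors, which signal through small adaptor proteins such as those encoded by Fcer1g and Tyrobp, and they kill microbes with lysozyme, pore-forming proteins and the NADPH oxidase, an enzyme complex that makes superoxide. Several of the 38 genes serve leukocytes in general, such as Ptprc, Cd48, Cd53, Coro1a, Rac2 and Vav1, and some, such as Lgals3, are also made by cells outside the blood lineage. In whole tissue a lower value of such a gene can mean fewer of these cells or less RNA per cell, which cannot be told apart here.

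PU.1, the protein encoded by Spi1, is the factor that sets the myeloid lineage, and it binds purine-rich sites built around GAGGAA. The RefSeq promoter table of assembly GRCr8 held a window for 24 of the 38 genes, and the 250 bases before each transcription start were searched on both strands for GAGGAAG and for TGANTCA, the site of AP-1 factors, which cannot overlap it. These genes had 25 windows, since Fcgr2a had 2. GAGGAAG stood in 12 of the 25 windows, each of another gene (Adgre1, Cd14, Cd53, Csf1r, Ctss, Fcgr2a, Gpnmb, Itgam, Laptm5, Mrc1, Trem2 and Vav1), against 10.2% of 33469 windows of the same length. TGANTCA stood in 4 of the 25 windows, against 6.34% of all windows. Below are the windows of genes whose values are described further on, 3 with GAGGAAG close to the start (read on the opposite strand, so that the capitals spell CTTCCTC), 1 with TGANTCA and 1 with neither. They are the windows of Ctss (chr2:185775146-185775395, plus strand, motif from base -16), Cd53 (chr2:197087897-197088146, minus strand, motif from base -45), Mrc1 (chr17:82157475-82157724, plus strand, motif from base -36), Cybb (chrX:16065066-16065315, minus strand, TGANTCA from base -166) and Lyz2 (chr7:54798012-54798261, minus strand). Each is written 5′ to 3′ along the gene and ends at base -1, the last before the start, and the capitals mark the motif.
Ctss: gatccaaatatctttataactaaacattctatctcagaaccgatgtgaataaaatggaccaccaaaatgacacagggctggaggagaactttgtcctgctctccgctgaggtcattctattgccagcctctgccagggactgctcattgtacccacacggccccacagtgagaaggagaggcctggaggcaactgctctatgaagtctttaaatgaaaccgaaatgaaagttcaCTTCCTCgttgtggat
Cd53: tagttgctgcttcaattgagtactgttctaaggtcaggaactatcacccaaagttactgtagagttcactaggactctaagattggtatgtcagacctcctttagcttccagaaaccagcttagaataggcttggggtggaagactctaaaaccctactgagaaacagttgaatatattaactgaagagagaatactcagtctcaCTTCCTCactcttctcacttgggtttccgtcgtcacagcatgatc
Mrc1: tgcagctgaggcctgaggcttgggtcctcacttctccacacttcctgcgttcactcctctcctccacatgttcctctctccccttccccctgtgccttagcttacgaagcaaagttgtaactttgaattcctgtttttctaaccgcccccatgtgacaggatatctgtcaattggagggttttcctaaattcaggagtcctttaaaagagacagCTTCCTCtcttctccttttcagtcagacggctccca
Cybb: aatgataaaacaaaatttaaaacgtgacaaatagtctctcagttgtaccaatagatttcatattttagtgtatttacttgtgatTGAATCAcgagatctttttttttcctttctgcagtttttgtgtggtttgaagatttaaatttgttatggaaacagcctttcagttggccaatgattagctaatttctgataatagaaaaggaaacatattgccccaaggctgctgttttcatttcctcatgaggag
Lyz2: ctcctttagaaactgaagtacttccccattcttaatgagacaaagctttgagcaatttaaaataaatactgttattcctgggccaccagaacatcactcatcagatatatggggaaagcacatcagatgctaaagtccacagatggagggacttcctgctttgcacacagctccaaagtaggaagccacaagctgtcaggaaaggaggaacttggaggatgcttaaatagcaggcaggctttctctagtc
A match describes the letters in the window only, and the window of Lyz2, the gene of smallest p in the mean of both chambers after the shunt, held neither motif as searched. The shorter GAGGAA was not searched for or counted. It does occur in the printed window of Lyz2 (gaggaac) and, on the opposite strand, in that of Cybb (tttcctc).

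The 33 measured genes did not move alike on the shunt arrays of a chamber, so the arrays are described first. Each value was set against the sham mean of its chamber. On atrial shunt array 1, 29 of the 33 genes were above the sham mean, with a median of 0.25 on the log2 scale, and on atrial shunt array 2, 29 were above it, with a median of 0.31. On atrial shunt array 3 only 8 were above it and 25 below, with a median of -0.14. Of all 10606 genes, 45.89% to 54.53% were above the sham mean of the chamber on any 1 of the 12 arrays.

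Atrial shunt array 3 was the lowest of the 3 atrial shunt arrays for 29 of the 33 genes and the highest for 0. It lay below every atrial sham array for 19 genes, among them Csf1r, the 3 C1q genes, Cd68, Cd163, Mrc1, Cd53 and Mpeg1, and above every sham array for 3, whereas arrays 1 and 2 each lay above every sham array for 26. The widest gap was in Cd53, a leukocyte tetraspanin, with 6.70, 6.62 and 5.49 on atrial shunt arrays 1, 2 and 3, against 6.13, 6.07 and 6.17 on the atrial sham arrays. Arrays 1 and 2 stood above, and array 3 below, all sham arrays in this gene. How many of all genes were lowest, highest or outside every sham array on a single array is not given. Such counts, here and for the ventricle below, thus describe the 33 genes only. Over the 33 genes the median range was 0.556 among the atrial shunt arrays and 0.182 among the atrial sham arrays, and 28 genes ranged more widely after the shunt. This wider scatter was not confined to the 33 genes. Over genes at large, arrays strayed from their group (root of the averaged squares) by 0.15, 0.13 and 0.20 on atrial shunt arrays 1, 2 and 3. The atrial sham arrays strayed by 0.11, 0.11 and 0.09, and no array strayed further than atrial shunt array 3.

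In the ventricle the shunt arrays ran the same way but not equally far. Array 2 was the highest of the 3 for 27 genes, with 31 genes above the sham mean and a median of 0.32. Arrays 1 and 3 each had 26 genes above the sham mean and 7 below, with medians of 0.13 and 0.16. The 6 sham arrays kept their medians between -0.03 and 0.03.

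A measure of RNA or labelling quality set the same arrays apart. The array carries control probe sets at both ends of the hexokinase transcript, and their difference (3′ over 5′, log2) grows as labelled RNA gets shorter. It was 0.80, 0.94 and 1.44 on atrial shunt arrays 1, 2 and 3, against 1.01, 1.10 and 1.06 on the atrial sham arrays. In the ventricle it came to 1.23, 0.82 and 1.18 for shunt pools 1, 2 and 3, against 0.84, 1.02 and 0.90 for the sham pools. The array where the 33 genes stood lowest had the highest difference of all 12, and ventricular shunt array 2, where they stood highest in its chamber, had the lowest of its chamber. Fibroblast markers moved with the same arrays, with a mean over 14 genes of 0.26, 0.20 and -0.09 on atrial shunt arrays 1, 2 and 3 and of -0.01, 0.26 and 0.02 on the ventricular ones. Smooth muscle and pericyte markers (8 genes) stood at 0.13, 0.10 and -0.12 on the atrial shunt arrays and endothelial markers (11 genes) at 0.11, 0.07 and -0.07. On the ventricular ones these stood at -0.08, -0.0034 and -0.06 and at 0.05, 0.07 and 0.12. Mesothelial markers (7 genes) stood at 3e-04, 0.01 and -0.53 on the atrial and 0.27, 0.14 and 0.08 on the ventricular shunt arrays. Cardiomyocyte markers (11 genes) ran the other way in the atrium, at -0.12, -0.11 and 0.02, and stood at -0.01, -0.04 and -0.03 in the ventricle. The part of these in the results below was not tested beyond the refits given there.

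**Figure D1:**
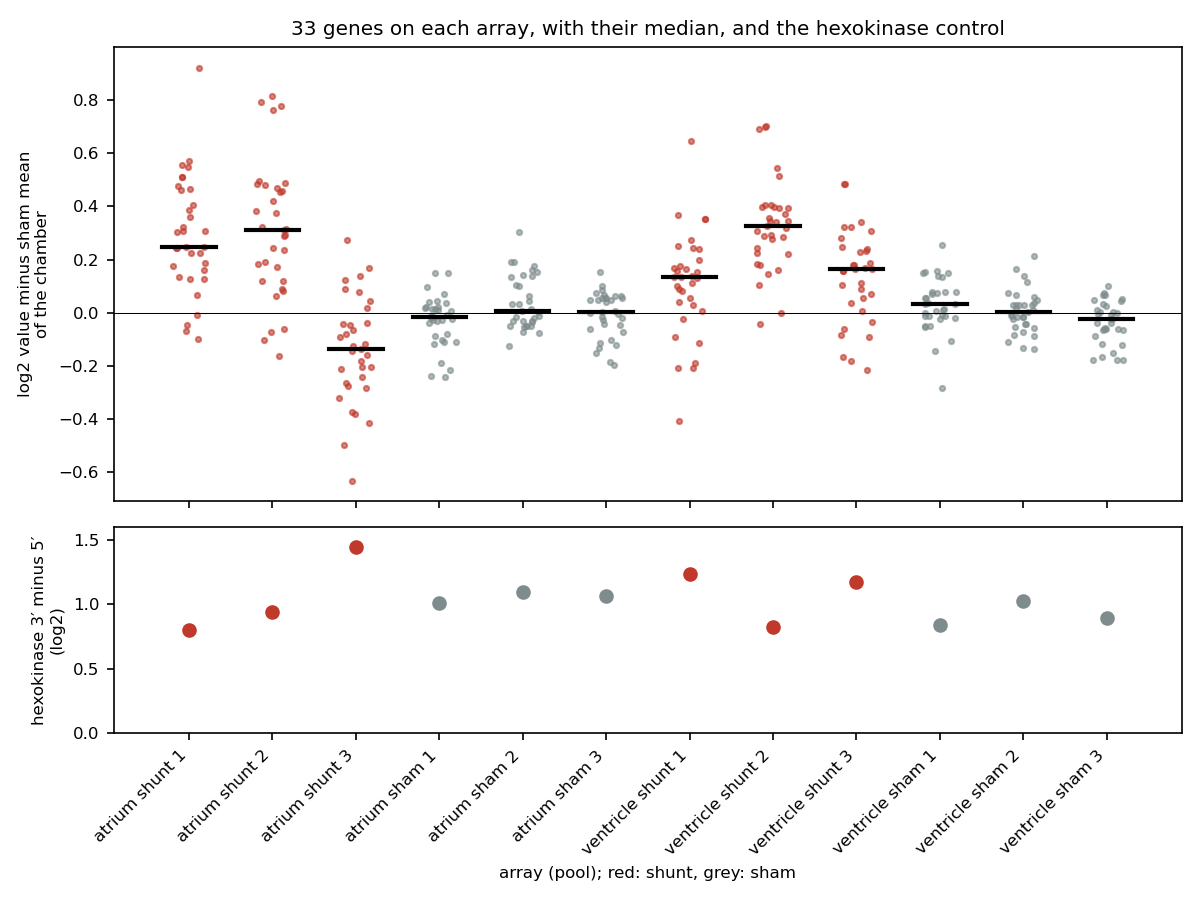
Top, each of the 33 genes (points) on each of the 12 arrays as its log2 value minus the sham mean of its chamber, with the median of the genes as a bar. Bottom, the hexokinase 3′ minus 5′ difference (log2) of the same array. Atrial shunt array 3 has a median of -0.14 and a hexokinase difference of 1.44, and ventricular shunt array 2 has a median of 0.32 and a difference of 0.82. Red points are shunt arrays and grey points sham arrays.

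**Figure D2:**
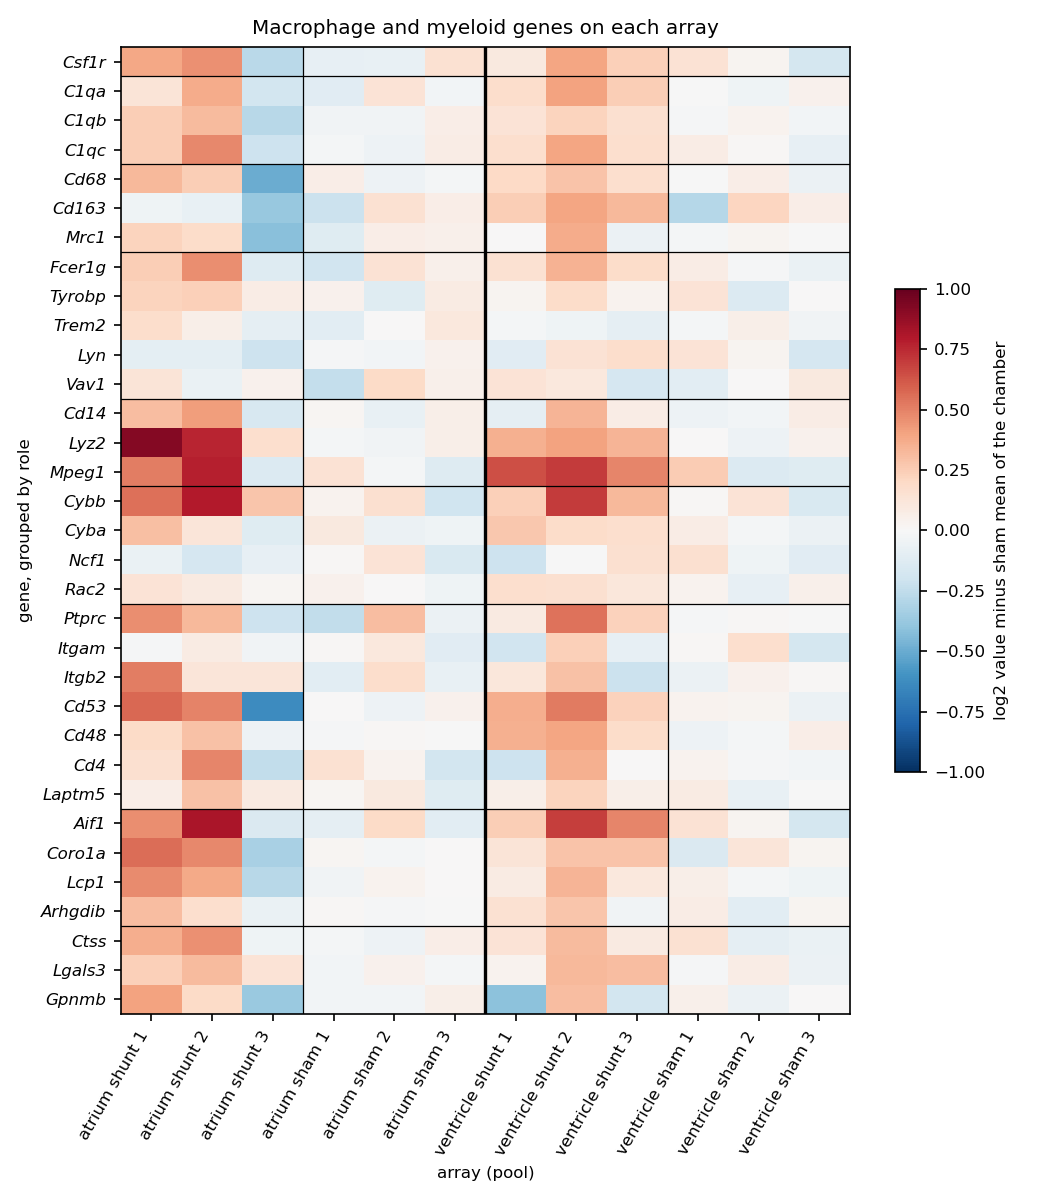
Log2 value minus the sham mean of the chamber (colour) for the 33 genes in rows, grouped by role, on the 12 arrays in columns. Most rows are red on atrial shunt arrays 1 and 2 and on ventricular shunt array 2, and most are blue on atrial shunt array 3. Ncf1, Lyn, Itgam and Trem2 stay pale on most arrays.

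Across both chambers, 2 of the 33 genes rose after the shunt, Lyz2 and Cybb, and 0 fell. Both are genes of microbial killing, Lyz2 encoding the lysozyme of myeloid cells and Cybb the catalytic subunit of the phagocyte NADPH oxidase. This comparison takes the mean of the shunt effects in atrium and ventricle, fitted with limma over all 12 arrays and adjusted by Benjamini-Hochberg over 18625 probe sets, with a threshold of 0.05. The 2 genes are 6.06% of the 33 genes, where 2.38% of all genes tested were called higher and 2.69% lower (5.06% either way). Of the 33, 29 lay above 0, and the median difference was 0.15, against -0.0041 over all genes.

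Lyz2 stood at log2 values of 10.08, 9.93 and 9.33 on the atrial shunt arrays, against 9.14, 9.13 and 9.22 on the atrial sham arrays. Its ventricular values were 10.14, 10.19 and 10.13 on the shunt arrays, against 9.79, 9.73 and 9.83 on the sham arrays. The groups did not overlap in either chamber, although atrial shunt array 3 lay only just above the sham arrays. Averaged over the chambers, Lyz2 rose by 0.49 ± 0.10 (SE of the fit, n = 3 arrays per group, limma adjusted p = 0.0236). Fitted without 1 array at a time, it stayed at 0.42 to 0.60 and kept its call in 6 of 12 fits. The call ended at adjusted p of 0.0509 to 0.0561 without atrial shunt 2, any 1 of the atrial sham arrays, ventricular sham 2 or ventricular sham 3.

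Cybb stood at 5.24, 5.49 and 4.97 on the atrial shunt arrays, against 4.73, 4.85 and 4.50 on the atrial sham arrays, and its ventricular values were 5.17, 5.64 and 5.26 after the shunt, against 4.95, 5.07 and 4.78 on the ventricular sham arrays. Its groups did not overlap in either chamber, and array 2 was the highest shunt array of each. Cybb rose by 0.48 ± 0.11 over the chambers (limma adjusted p = 0.0308). It kept its call in 5 of 12 fits that left out 1 array, at 0.41 to 0.54, and lost it without atrial shunt 1 or 2, atrial sham 1 or 3, or any 1 of the ventricular sham arrays, at adjusted p of 0.0502 to 0.0795. Its second probe set lay below the floor, at a mean of 3.66.

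The next 4 genes by p did not pass. Lgals3, which encodes galectin-3, a sugar-binding protein of activated macrophages, differed by 0.23 ± 0.06 (limma adjusted p = 0.0511), and Mpeg1, which encodes the pore-forming perforin-2, by 0.50 ± 0.14 (adjusted p = 0.0600). Cd48, an adhesion protein of leukocytes, differed by 0.23 ± 0.06 (adjusted p = 0.0601), and Aif1, the actin-binding microglia and macrophage marker also called IBA1, by 0.43 ± 0.14 (adjusted p = 0.112). In all, 11 of the 33 genes reached an unadjusted p under 0.05, every one of them with a positive difference (33.3%, where 10.6% of the 10606 genes were higher and 11.7% lower at that level).

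The number of genes called turned on single arrays and on the hexokinase difference. Without atrial shunt array 3, 16 of the 33 genes were called higher in the mean of both chambers, among them the 3 C1q genes, Csf1r, Cd68, Cd53, Aif1 and Mpeg1, and 0 were lower. That is 48.5% of the genes, where 3.77% of all genes were called higher in the same fit. Array 3 was the lowest atrial shunt array for 29 of the 33 genes. Leaving it out was bound to raise their effects, so this count shows only how far the result hung on 1 array. With the hexokinase difference as a covariate in the fit, 13 were called higher and 0 lower (39.4%, where 5.14% of all genes were called higher). A further fit, chosen after seeing the data, left out the 3 shunt arrays of highest hexokinase difference. It keeps 1 ventricular shunt array that is assumed to vary like the other groups, so no count is given for it. The 3 arrays were also the shunt arrays where the medians of the 33 genes were lowest. Leaving them out was thus bound to raise the shunt effects. In the other direction, 0 were called without atrial shunt 2, atrial sham 1, atrial sham 3, ventricular sham 2 or ventricular sham 3, and 1 without atrial shunt 1, atrial sham 2 or ventricular sham 1.

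**Figure D3:**
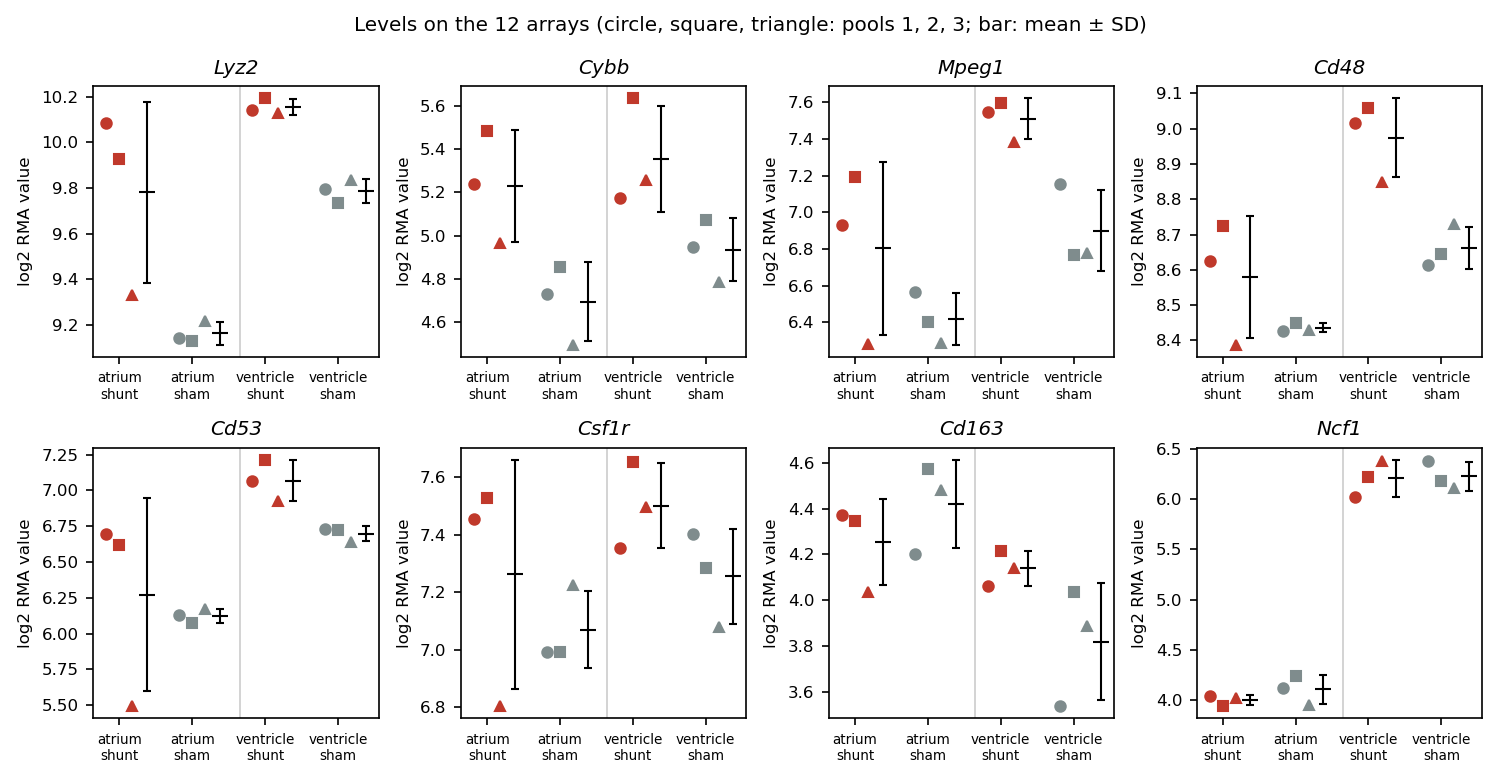
Log2 values of 8 of the genes on the 12 arrays, by chamber and operation, with pools 1, 2 and 3 as circle, square and triangle and the group mean ± SD as a bar. In Lyz2 and Cybb every shunt array lies above every sham array of its chamber. In Cd53 and Csf1r atrial shunt 3 lies below all atrial sham arrays, and Ncf1 lies near 4 on the atrial and near 6 on the ventricular arrays after either operation.

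Taken chamber by chamber, 0 of the 33 genes passed in the left atrium, where 1.40% of all genes tested did (0.585% higher and 0.811% lower). The differences ranged from -0.17 to 0.62, with 29 above 0 and a median of 0.15, against -0.0084 over all genes. At an unadjusted p under 0.05 there were 3, Lyz2, Cybb and Lgals3, all higher (9.09%, where 6.98% of all genes were higher and 8.89% lower at that level). The same 3 were the genes whose atrial shunt arrays all lay above the sham arrays, 9.09% of the 33 genes, where 9.26% of all genes did so. For 1 gene, Lyn, all shunt arrays lay below the sham arrays (3.03%, against 12.5% of all genes). The atrial share of genes with separate groups was thus near that of all genes in the upward direction and under it in the downward one.

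In the left ventricle 0 of 33 passed as well, where 0.113% of all genes did (0.0566% in each direction). The differences ranged from -0.09 to 0.61, again with 29 above 0, and the median was 0.18, against 1e-04 over all genes. At an unadjusted p under 0.05 there were 9, all higher (27.3%, where 7.6% of all genes were higher and 7.04% lower at that level). For 17 of the 33 genes, 51.5%, every ventricular shunt array lay above every sham array, where 11.0% of all genes did so, and for 0 genes every shunt array lay below (10.5% of all genes). The 17 were the 3 C1q genes, Cd68, Cd163, Fcer1g, Lyz2, Mpeg1, Cybb, Cyba, Rac2, Ptprc, Cd53, Cd48, Aif1, Coro1a and Lcp1. The members of a cell type share their cells, so these genes are not independent of each other. The fit takes 1 spread per probe set for all 4 groups. The SE and p of a ventricular difference thus also carry the spread of the atrial shunt arrays. The median range over the 33 genes was 0.261 among ventricular shunt arrays, 0.137 among ventricular sham arrays and 0.556 among atrial shunt arrays. Over genes at large, too, the shunt arrays of each chamber scattered more than its sham arrays. Fitted with the ventricular groups alone, 0 of the 33 were called too, where 0.00943% of all genes were called higher.

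By role, the 3 genes of microbial sensing and killing had the highest median difference of the role groups, 0.38 in the atrium and 0.37 in the ventricle. Lyz2 differed by 0.62 ± 0.15 in the atrium (limma adjusted p = 0.0657) and by 0.37 ± 0.15 in the ventricle (adjusted p = 0.279). Mpeg1 differed by 0.38 ± 0.19 in the atrium (adjusted p = 0.377), at 6.93, 7.19 and 6.28 on the shunt arrays against 6.57, 6.40 and 6.29 on the sham arrays. In the ventricle Mpeg1 differed by 0.61 ± 0.19 (adjusted p = 0.193), at 7.55, 7.60 and 7.39 on the shunt arrays against 7.15, 6.77 and 6.78 on the sham arrays. The Mpeg1 groups overlapped in the atrium through shunt array 3 and did not in the ventricle. Cd14, the co-receptor for bacterial lipopolysaccharide, stood at 6.22, 6.34 and 5.76 on the atrial shunt arrays against 5.93, 5.84 and 5.97 on the sham arrays. In that chamber its shunt arrays lay on both sides of the sham arrays.

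Of the 4 measured subunits and regulators of the NADPH oxidase, Cybb had the largest difference in each chamber, 0.54 ± 0.15 in the atrium (limma adjusted p = 0.120) and 0.42 ± 0.15 in the ventricle (adjusted p = 0.242). Rac2, the small GTPase that switches the complex on, differed by 0.15 ± 0.06 in the ventricle (adjusted p = 0.309), at 6.75, 6.74 and 6.69 on the shunt arrays against at most 6.63 on the sham arrays. These ventricular groups did not overlap. Cyba, the membrane partner of Cybb, measured 7.26, 7.17 and 7.15 on the ventricular shunt arrays against 7.07, 6.97 and 6.93 on the sham arrays, also without overlap. Ncf1, a cytosolic organizer of the complex, was the only gene of the 33 below 0 in both chambers. Its values of 6.02, 6.22 and 6.38 on the ventricular shunt arrays lay among the 6.38, 6.19 and 6.11 of the sham arrays.

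Csf1r, the receptor through which macrophages are kept alive, stood at 7.45, 7.53 and 6.80 on the atrial shunt arrays, against 6.99, 6.99 and 7.23 on the atrial sham arrays. It differed by 0.19 ± 0.17 there (limma adjusted p = 0.643) and by 0.25 ± 0.17 in the ventricle (adjusted p = 0.531). Arrays 1 and 2 stood above all atrial sham arrays and array 3 below them.

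The 3 chains of C1q, the complement starter that tissue macrophages make, moved as a unit across the arrays. Their mean stood at 0.21, 0.39 and -0.22 on atrial shunt arrays 1, 2 and 3 and at 0.16, 0.34 and 0.19 on the ventricular ones, relative to the sham mean. C1qb differed by 0.09 ± 0.12 in the atrium (limma adjusted p = 0.784), with 7.53, 7.60 and 7.01 on the shunt arrays against 7.26, 7.26 and 7.35 on the sham arrays. In the ventricle it differed by 0.17 ± 0.12 (adjusted p = 0.548), with 7.59, 7.67 and 7.61 on the shunt arrays against 7.44, 7.49 and 7.43 on the sham arrays. All 3 genes kept their ventricular shunt arrays above the sham arrays, and in the atrium array 3 lay below the sham arrays for all 3.

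Among scavenger and endocytic receptors, Cd163, which takes up haemoglobin bound to haptoglobin and marks resident macrophages, pointed opposite ways in the chambers. It stood at 4.37, 4.35 and 4.04 on the atrial shunt arrays against 4.20, 4.57 and 4.48 on the atrial sham arrays, a difference of -0.17 ± 0.14 (limma adjusted p = 0.617). Its ventricular values were 4.06, 4.21 and 4.14 after the shunt against 3.54, 4.03 and 3.89 on the sham arrays, a difference of 0.32 ± 0.14 (adjusted p = 0.314). The ventricular groups did not overlap and the atrial ones did, but the ventricular sham mean of 3.82 lay under the floor, so the size of the ventricular difference is uncertain.

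Cd68, a lysosomal membrane protein used as a general macrophage marker, stood at 6.14, 6.06 and 5.32 on the atrial shunt arrays, against 5.89, 5.77 and 5.80 on the atrial sham arrays. It differed by 0.02 ± 0.16 in the atrium (limma adjusted p = 0.969) and by 0.22 ± 0.16 in the ventricle (adjusted p = 0.574). The atrial value turned to -0.13, -0.09 and -0.0023 without atrial shunt 1, atrial shunt 2 and atrial sham 2, and to 0.28 without atrial shunt 3. Mrc1, the mannose receptor CD206, differed by -0.0024 ± 0.16 in the atrium (adjusted p = 0.996) and by 0.10 ± 0.16 in the ventricle (adjusted p = 0.804). Its atrial value turned to 0.20, 0.03 and 0.02 without atrial shunt 3, atrial sham 2 and atrial sham 3, and its ventricular value to -0.03 without ventricular shunt 2. Leaving out any 1 of several arrays thus turned the sign of these small atrial differences.

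The mean over the 5 Fc receptor and adaptor genes stood at 0.13, 0.12 and -0.06 on atrial shunt arrays 1, 2 and 3 and at 0.04, 0.15 and 0.03 on the ventricular ones. Fcer1g, the common gamma chain of Fc receptors, measured 7.60, 7.82 and 7.22 on the atrial shunt arrays against 7.16, 7.49 and 7.40 on the sham arrays. Its ventricular shunt arrays lay at 7.98 or above, against 7.90, 7.81 and 7.76 on the sham arrays. It differed by 0.20 in the atrium, where the groups overlapped, and by 0.23 in the ventricle, where they did not, and was not called in either. Tyrobp, which encodes the adaptor DAP12, differed by 0.18 ± 0.09 in the atrium (limma adjusted p = 0.370). Lyn, a Src-family kinase acting on these receptors, stood at 7.08, 7.08 and 6.98 on the atrial shunt arrays, against 7.17, 7.15 and 7.22 on the atrial sham arrays. Lyn was the one gene of the 33 whose atrial shunt arrays all lay below the sham arrays, and its second probe set differed the same way there, by -0.29 ± 0.06 (adjusted p = 0.0513). Trem2, a lipid-sensing receptor that signals through DAP12, stood at 5.31, 5.19 and 5.04 on the atrial shunt arrays against 5.02, 5.14 and 5.23 on the sham arrays, an overlap of the groups.

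Genes of the leukocyte cytoskeleton set the atrial shunt arrays far apart. The mean over Aif1, Coro1a, Lcp1 and Arhgdib stood at 0.45, 0.46 and -0.20 on atrial shunt arrays 1, 2 and 3. On the ventricular shunt arrays it stood at 0.15, 0.40 and 0.21. Aif1 measured 4.75, 5.10 and 4.14 on the atrial shunt arrays against 4.19, 4.47 and 4.18 on the sham arrays, and 4.85, 5.29 and 5.08 on the ventricular shunt arrays against 4.75, 4.63 and 4.42 on the sham arrays. Its ventricular groups did not overlap. Coro1a, an actin-binding coronin of leukocytes, stood at 5.86, 5.79 and 4.99 on the atrial shunt arrays against 5.33, 5.29 and 5.31 on the sham arrays, with array 3 the lowest of the 6.

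Among leukocyte surface proteins, Cd48 had the smallest p of the 33 genes in the ventricle. Its ventricular values were 9.02, 9.06 and 8.85 after the shunt against 8.61, 8.65 and 8.73 in sham rats, a difference of 0.31 ± 0.09 (limma adjusted p = 0.155). Cd4, which rat macrophages carry as well as helper T cells, measured 4.76, 5.32 and 4.97 on the ventricular shunt arrays, against 4.94 or more on the sham arrays. Itgam, the CD11b chain of the complement receptor, measured 4.10, 4.53 and 4.20 on the ventricular shunt arrays against 4.30, 4.46 and 4.11 on the sham arrays. Neither Cd4 nor Itgam separated the ventricular groups.

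Of the lysosomal and activation genes, Lgals3 differed by nearly the same amount in both chambers, 0.23 ± 0.08 in the atrium (limma adjusted p = 0.214) and 0.22 ± 0.08 in the ventricle (adjusted p = 0.254). It stood at 8.82, 8.89 and 8.71 on the atrial shunt arrays, all above the 8.55, 8.62 and 8.56 of the sham arrays. Ctss, the class II-processing protease cathepsin S, differed by 0.26 ± 0.12 in the atrium (adjusted p = 0.345), at 7.61, 7.70 and 7.20 on the shunt arrays against 7.23, 7.20 and 7.31 on the sham arrays. Gpnmb, a glycoprotein of lipid-laden macrophages, measured 5.99, 6.70 and 6.21 on the ventricular shunt arrays against 6.45, 6.34 and 6.40 on the sham arrays. Its ventricular shunt arrays had the widest range of the 33 genes, 0.71.

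**Figure D4:**
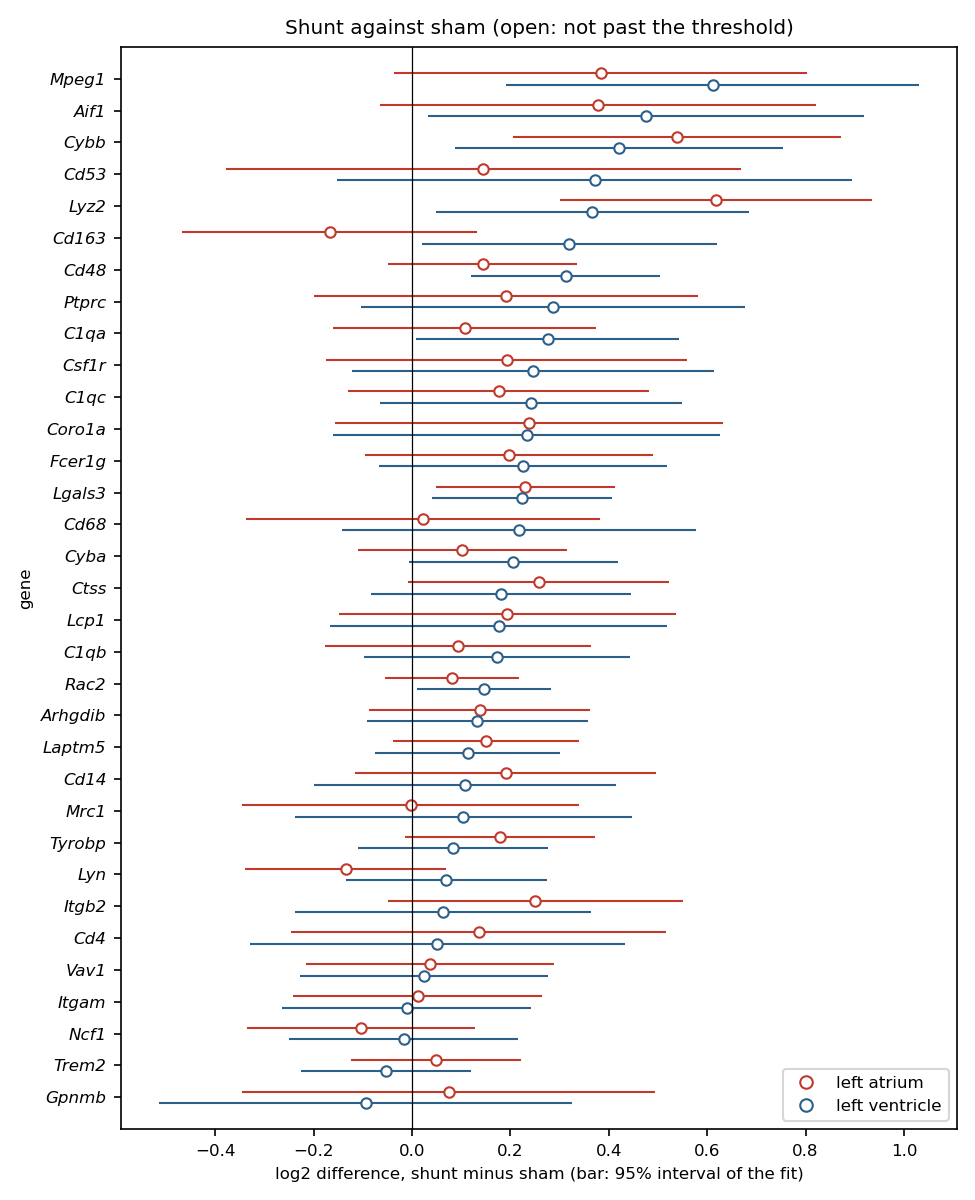
Log2 difference, shunt minus sham, of the 33 genes in the left atrium (red) and left ventricle (blue), with the 95% interval of the limma fit. All points are open, since 0 genes passed the threshold in either chamber. Of the 33, 29 lie above 0 in each chamber, and the intervals of Lyz2, Cybb and Lgals3 stay above 0 in both.

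The chambers were then compared in their response. Of the 33 genes, 26 lay above 0 in both chambers, Ncf1 lay below 0 in both, and 6 had opposite signs, Cd163, Gpnmb, Itgam, Lyn, Mrc1 and Trem2. The difference of the effects, atrium minus ventricle, was called for 0 of the 33 by limma and for 0% of all genes, so at this number of arrays no gene was shown to respond differently. At an unadjusted p under 0.05 there was 1 of the 33, Cd163, at -0.49 ± 0.19 (limma adjusted p = 0.691), which rests on the ventricular sham arrays under the floor. The next by p were Lyn at -0.21 ± 0.13 (adjusted p = 0.873), Cd48 at -0.17 ± 0.12 (adjusted p = 0.909), Lyz2 at 0.25 ± 0.21 (adjusted p = 0.925), C1qa at -0.17 ± 0.17 and Itgb2 at 0.19 ± 0.19 (adjusted p = 0.960 for both). The 95% interval of the difference ran from -0.20 to 0.70 for Lyz2 and from -0.35 to 0.59 for Cybb. Both intervals include differences as large as the gene's rise.

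Between the chambers themselves the genes split. In shunt rats 12 of the 33 were lower in atrium than in ventricle and 4 were higher, 36.4% and 12.1% of the genes, where 20.9% of all genes were called lower and 24.8% higher (45.6% either way). In sham rats 13 were lower and 5 higher in the atrium, 39.4% and 15.2%, where 22.6% of all genes were called lower and 27.6% higher (50.2% either way). The median difference was -0.24 in shunt rats and -0.25 in sham rats, where that over all genes was 0.01 in shunt rats and 0.02 in sham rats. In some genes 1 chamber lay under the floor and the gene was tested through the other: Itgam and Ncf1 in shunt rats, and Itgam, Vav1 and Cd163 in sham rats, all of them called. Without these, 10 genes were lower and 4 higher of 31 in shunt rats, and 11 lower and 4 higher of 30 in sham rats. The same 13 genes were called the same way after both operations, 9 of them lower in the atrium (Coro1a, Fcer1g, Itgam, Laptm5, Lcp1, Ncf1, Ptprc, Rac2 and Tyrobp) and 4 higher (Arhgdib, Gpnmb, Lgals3 and Lyn).

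Ncf1 was near the floor in the atrium and well above it in the ventricle. It stood at 4.04, 3.94 and 4.03 on the atrial shunt arrays against 6.02, 6.22 and 6.38 on the ventricular shunt arrays, and at 4.12, 4.24 and 3.96 on the atrial sham arrays against 6.38, 6.19 and 6.11 on the ventricular sham arrays. The chambers did not overlap after either operation, and since the atrial values lay close to the floor of 4.01, the size of the difference is not given. Rac2, another oxidase gene, differed by -0.42 ± 0.06 in shunt rats and -0.35 ± 0.06 in sham rats (limma adjusted p = 0.000203 and 0.000662).

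Among receptor and adaptor genes, Tyrobp and Fcer1g were lower in the atrium after both operations. Tyrobp differed by -0.45 ± 0.09 in shunt rats (limma adjusted p = 0.00148) and by -0.55 ± 0.09 in sham rats (adjusted p = 0.00035). Fcer1g differed by -0.50 ± 0.13 in shunt rats (adjusted p = 0.00991) and by -0.47 ± 0.13 in sham rats (adjusted p = 0.0125). The sham call of Fcer1g ended without atrial sham 1, at -0.38 (adjusted p = 0.0537). Itgb2, which with Itgam forms a receptor for complement-coated particles, differed by -0.48 ± 0.14 in sham rats (adjusted p = 0.0137), and Trem2 was lower in the atrium of sham rats as well. Itgam averaged 3.83 in the atrium and 4.28 in the ventricle of shunt rats, and 3.82 in the atrium and 4.29 in the ventricle of sham rats, and Vav1 3.99 and 4.31 in sham rats. These atrial means lay under the floor, so no size is given for either gene.

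Lyn went the other way from the receptors it serves. It was higher in the atrium by 0.70 ± 0.09 in shunt rats (limma adjusted p = 8.56e-05) and by 0.91 ± 0.09 in sham rats (adjusted p = 1.07e-05). Its second probe set, at a mean of 4.55, gave -0.04 in shunt rats, which did not pass, and 0.26 in sham rats, which did, so the probe sets disagreed on the sign in shunt rats and on the size in sham rats.

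Leukocyte-wide genes were also lower in the atrium. Coro1a differed by -0.69 ± 0.18 in shunt rats and -0.70 ± 0.18 in sham rats (limma adjusted p = 0.00874 and 0.00768). Lcp1, the actin bundler L-plastin, differed by -0.56 ± 0.16 in sham rats (adjusted p = 0.0120), and Ptprc, the common leukocyte antigen CD45, by -0.62 ± 0.18 in shunt rats (adjusted p = 0.0150). The Ptprc call in shunt rats ended without ventricular shunt 2, at -0.49 (adjusted p = 0.0585), and the atrial means of a second Ptprc probe set, 3.91 in shunt rats and 3.84 in sham rats, lay under the floor. Cd48 differed by -0.40 ± 0.09 in shunt rats (adjusted p = 0.00344).

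Mpeg1 was lower in the atrium of shunt rats, at -0.71 ± 0.19 on the log2 scale (limma adjusted p = 0.0109), and was not called in sham rats. Lyz2 was not called in shunt rats and was lower in the atrium of sham rats, at -0.62 ± 0.15 (adjusted p = 0.00414). In all, 3 genes were called in shunt rats alone (Cd48, Cd53 and Mpeg1) and 5 in sham rats alone (Cd163, Itgb2, Lyz2, Trem2 and Vav1), but for 0 of these 8 did the difference between the operations pass its own test. Without the 3 shunt arrays of highest hexokinase difference, which leaves 1 ventricular shunt array, Mpeg1 in shunt rats differed by -0.54.

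The genes higher in the atrium included a galectin and a glycoprotein of lipid-laden macrophages. Lgals3 was higher by 0.43 ± 0.08 in shunt rats and 0.42 ± 0.08 in sham rats (limma adjusted p = 0.00145 and 0.00147), and its atrial and ventricular arrays did not overlap after either operation. Gpnmb was higher by 0.77 ± 0.19 in shunt rats (adjusted p = 0.00679), where arrays overlapped, with 7.40, 7.19 and 6.62 on the atrial arrays against 5.99, 6.70 and 6.21 on the ventricular arrays. Cd163 in sham rats stood at 4.20, 4.57 and 4.48 on the atrial arrays against 3.54, 4.03 and 3.89 on the ventricular arrays, where its mean lay under the floor.

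Several of the genes most used to mark tissue macrophages showed no call between the chambers. The C1q genes differed by -0.24 to -0.08 in shunt rats and by -0.16 to 0.02 in sham rats, and Csf1r, Cd68, Mrc1, Cd14, Aif1, Ctss and Cybb were not called after either operation. This does not show them equal. In shunt rats the 95% interval ran from -0.86 to 0.03 for Aif1, from -0.61 to 0.13 for Csf1r, from -0.51 to 0.03 for C1qb and from -0.42 to 0.12 for C1qa. In sham rats every atrial array of C1qb and Ctss lay below every ventricular array, and every atrial array of Cd14 above. Fitted with the sham groups alone, Aif1 and Ctss were called lower in the atrium and Cd14 higher.

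**Figure D5:**
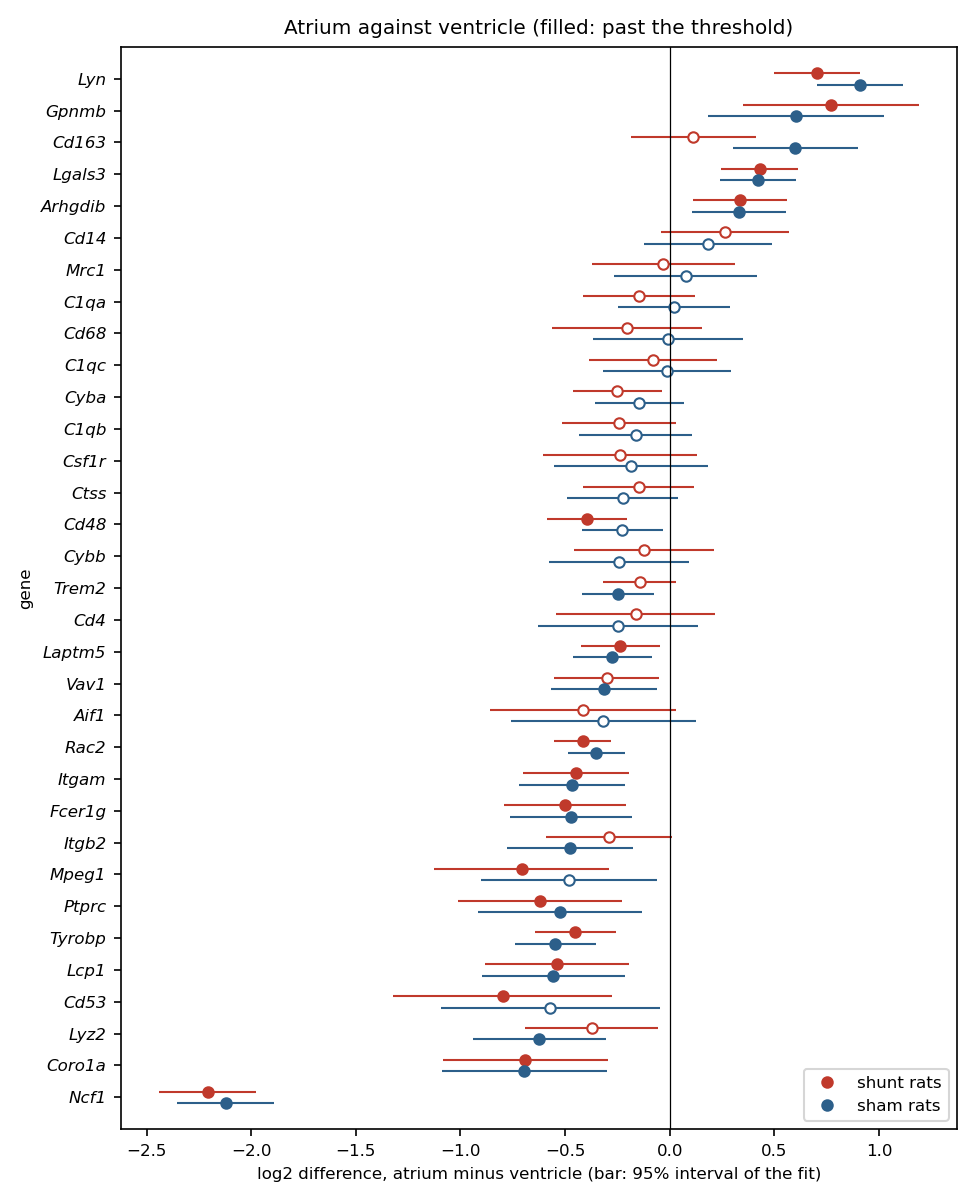
Log2 difference, atrium minus ventricle, of the 33 genes in shunt rats (red) and sham rats (blue), with the 95% interval of the limma fit; filled points passed an adjusted p of 0.05. Ncf1 lies farthest to the left, with its atrial values near the floor, Lyn, Gpnmb, Lgals3 and Arhgdib are filled to the right of 0 after both operations, and the C1q genes lie between -0.24 and 0.02, none filled.

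Genes of the same pathways that are not among the 38 were taken from lists written for this purpose. The lists were written with earlier results of these data known, so their counts beside the shares of all genes are a description only. In the mean of both chambers after the shunt, the class II presentation list had 4 of 9 measured genes higher and 0 lower, where 2.38% of all genes were called higher and 2.69% lower, as for each list of this comparison. RT1-Da, a class II chain, rose by 0.65 ± 0.08 (limma adjusted p = 0.00207), RT1-Ba by 0.64 ± 0.11 (adjusted p = 0.0125) and RT1-DMb by 0.69 ± 0.12 (adjusted p = 0.0128). On ventricular shunt arrays 1, 2 and 3 this list stood at 0.39, 0.41 and 0.39 above the sham mean, where the 33 myeloid genes stood at 0.11, 0.33 and 0.14. On atrial shunt arrays 1, 2 and 3 it stood at 0.45, 0.34 and 0.05, where the 33 stood at 0.29, 0.31 and -0.14.

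Of the complement list 2 of 9 genes rose, the central component C3 by 0.30 ± 0.07 and the C1 inhibitor gene Serping1 by 0.31 ± 0.08 (limma adjusted p = 0.0326 and 0.0470). In the list of the Csf1 growth axis 1 of 13 rose, Csf2ra, a receptor chain for the growth factor GM-CSF, by 0.29 ± 0.06, and 1 fell, Nr1h3, the lipid-sensing nuclear receptor LXR-alpha, at -0.27 ± 0.06 (adjusted p = 0.0208 and 0.0376). Casp1, the inflammasome protease, was the 1 of 12 inflammatory genes that rose, by 0.28 ± 0.06 (adjusted p = 0.0221). Clec4a3, a lectin of myeloid cells, was the 1 of 5 pattern receptor genes that rose, by 0.56 ± 0.13 (adjusted p = 0.0310).

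The lysosomal list had 2 of 16 higher and 1 lower, with the protease Ctsl at 0.23 ± 0.05, the cholesterol carrier Npc2 at 0.17 ± 0.04 and the acid lipase Lipa at -0.22 ± 0.06 (limma adjusted p = 0.0326, 0.0429 and 0.0456). In the resident macrophage list Stab1, a scavenger receptor of resident macrophages and sinus endothelium, was the 1 of 9 that rose, by 0.33 ± 0.06 (adjusted p = 0.0175). In the monocyte list 0 of 7 rose and 1 fell, Nr4a1, a nuclear receptor of patrolling monocytes that is also an immediate early gene in many cells, at -1.32 ± 0.18 (adjusted p = 0.00387). Of 14 phagocyte signalling genes and 4 oxidase partners 0 passed in either direction, and 3 of the 14 and 1 of the 4 were higher at an unadjusted p under 0.05, with 0 lower.

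These lists also divided between the chambers, where 20.9% of all genes were called lower and 24.8% higher in the atrium of shunt rats, and 22.6% lower and 27.6% higher in sham rats. In the atrium of shunt rats 7 of 9 class II genes were lower and 0 higher, with Cd74, the class II invariant chain, at -1.24 ± 0.09 (limma adjusted p = 6.1e-07), and in sham rats 7 of 9 were lower too, with Cd74 at -1.08 ± 0.09 (adjusted p = 1.59e-06). Of the phagocyte signalling list 8 of 14 were lower and 1 higher in shunt rats, against 5 lower and 1 higher in sham rats, and of the inflammatory list 7 of 12 were lower in shunt rats and 3 in sham rats, with 0 higher in either. Resident macrophage genes ran the other way, with 4 of 9 higher in shunt rats and 5 of 9 in sham rats, and 0 lower. Lyve1, a hyaluronan receptor of vessel-associated macrophages and lymphatic vessels, was higher in the atrium by 0.82 ± 0.18 in shunt rats and 1.15 ± 0.18 in sham rats (adjusted p = 0.00299 and 0.000259), and the growth factor Igf1 by 0.68 ± 0.07 and 0.99 ± 0.07 (adjusted p = 7.18e-06 and 3.05e-07). Of 16 lysosomal genes 11 were higher and 1 lower in the atrium of shunt rats, and 10 higher and 1 lower in sham rats.

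Markers of other cells differed between the chambers as well. In shunt rats 10 of 14 fibroblast markers were higher in the atrium and 1 lower, 6 of 7 mesothelial markers higher and 1 lower, 2 of 11 endothelial markers higher and 6 lower, and 0 of 8 smooth muscle and pericyte markers higher and 3 lower. In sham rats 9 of 14 fibroblast markers were higher in the atrium and 1 lower, 6 of 7 mesothelial markers higher and 1 lower, 1 of 11 endothelial markers higher and 6 lower, and 0 of 8 smooth muscle and pericyte markers higher and 6 lower. Of the T and NK cell list, of which only 6 of 18 genes stood above the floor, 5 were lower and 0 higher in the atrium of shunt rats, and 4 lower and 1 higher in sham rats. Of 6 mast cell genes 3 were lower in shunt rats and 4 in sham rats. Of 12 neutrophil genes 2 were measured and of 9 B cell genes 1. After the shunt, the T and NK cell genes stood at -0.17, 0.00 and -0.23 on atrial shunt arrays 1, 2 and 3 and at 0.16, 0.06 and 0.08 on the ventricular ones, and by limma 0 of the 6 was called in either chamber, with 1 lower in the atrium and 1 higher in the ventricle at an unadjusted p under 0.05. Red cell genes stood at 0.55, 0.36 and -0.18 on the atrial shunt arrays and at 0.07, -0.17 and 0.26 on the ventricular ones. The part of these cells in the values of the 33 genes was not tested.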

How the data were processed

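RNA of 12 pools was measured on 1-colour Affymetrix rat arrays, from 10 µg of total RNA each. The values deposited by the authors are log2 values (2.05 to 14.29) made with RMA, per the submitters' processing notes, and the RMA version and the arrays normalized together are not given in the sources used here. Of 31099 probe sets 57 were controls and left out, 20826 carried 1 gene symbol in the platform annotation, and 20758 of these matched the RefSeq gene table of GRCr8. Probe sets with a mean at or above the 40th percentile (4.01) were tested, 18625 in all, and the brightest of a gene's passing probe sets stood for it (10606 genes). Levels of different probe sets were not compared.

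A model with 1 mean per group over all 12 arrays was fitted with limma 3.58.1 (R 4.3.3), with 8 residual degrees of freedom and a prior of 3.68. P-values were two-sided and adjusted by Benjamini-Hochberg over all probe sets tested, with a threshold of 0.05, in 6 contrasts. On simulated data for the atrial contrast with 18625 probe sets, 50 probe sets were shifted by each of 4 log2 amounts, and the fit called 64% of those shifted by 0.5, 98% at 1, 98% at 1.5 and 100% at 2, with 10 other calls. Members given with a test were those that passed, filled to 6 by smallest p or held to 12, and in each chamber's shunt contrast also Cd68, Csf1r, Cd163, C1qb, Lyz2 and Mrc1. Levels may be given for any member. Of a related list, up to 3 passing genes of smallest p were named. The members and lists were chosen with earlier results of these data known. Alternatives were other dim-probe filters, further quantile or cyclic loess normalization, weighting the arrays, a prior that is trended and robust, fitting the compared groups alone, blocking on the replicate number, averaging a gene's probe sets, the hexokinase difference as a covariate, leaving out each array, and, added after seeing the data, leaving out the 3 shunt arrays of highest hexokinase difference.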

Additional observations from a re-analysis of the deposited data

How the results depend on the processing

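The number of the 33 genes called after the shunt depended on the processing, always with 0 called lower. In the mean of both chambers (2 called) it was 4 with the filter at the 60th percentile (23 of the genes tested), 5 after a further quantile normalization, 4 with cyclic loess, 8 with array weights, 4 with a trended and robust prior and 13 with the hexokinase covariate. In the atrium (0 called) it was 1 with the filter at the 60th percentile, 3 with array weights and 2 with the hexokinase covariate. In the ventricle (0 called) it was 3 with the hexokinase covariate. The share of all genes called higher changed too. In the mean of both chambers it was 2.38% in the main fit and 3.76% with the filter at the 60th percentile. It was 2.96% after quantile normalization, 2.99% with cyclic loess, 4.85% with array weights, 3.15% with the trended and robust prior and 5.14% with the covariate. In the atrium it was 0.585% in the main fit, 1.15% with that filter, 2.58% with array weights and 1.96% with the covariate. Without the 3 shunt arrays of highest hexokinase difference, a choice made after seeing the data, 9 were called in the atrium and 20 in the mean of both chambers, and the medians were 0.28 in the atrium, 0.32 in the ventricle and 0.30 in the mean of both. Leaving out each array in turn gave 0 to 6 called in the atrium (6 without atrial shunt 3), 0 to 1 in the ventricle (1 without atrial shunt 3), 0 to 16 in the mean of both (16 without atrial shunt 3), 0 to 0 for the difference of the effects, 12 to 17 between the chambers in shunt rats and 13 to 23 in sham rats. The median difference then ran from 0.075 to 0.28 in the atrium, 0.15 to 0.21 in the ventricle and 0.12 to 0.24 in the mean of both. In the same fits 0.745% to 3.77% of all genes were called higher in the mean of both. Between the chambers 21% to 24.7% of all genes were called higher in the atrium of shunt rats, and 23.6% to 28.9% in sham rats. Without atrial shunt 3 the atrial differences of Lyz2, Cybb and Mpeg1 passed, at 0.84, 0.67 and 0.64 (limma adjusted p = 0.000449, 0.0427 and 0.0317). That array held the lowest atrial shunt value of each, so these differences were bound to rise without it. The sign of near-zero differences turned. In the atrium Mrc1 was 0.026 after quantile normalization, 0.027 with cyclic loess, 0.11 with array weights, 0.00 with the hexokinase covariate, -0.12 to 0.20 when each array was left out and 0.20 without the 3 shunt arrays. Cd68 ran from -0.13 to 0.28 and C1qb from -0.018 to 0.28 in the atrium, and Mrc1 from -0.028 to 0.19 in the ventricle, when each array was left out. The cause of these changes was not tested. With a replicate block over all groups, 1 gene was called in the atrium (Cybb) and 4 in the mean of both chambers, and between the chambers 17 were called in shunt rats and 19 in sham rats. With the hexokinase covariate C1qb and Aif1 (lower in the atrium) and Cd14 (higher) were among the genes called between the chambers in shunt rats. With the block within an operation, 19 were called in shunt rats and 22 in sham rats. With the compared groups fitted alone, 12 were called between the chambers in shunt rats (16 in the main fit). In sham rats 25 were called (18 in the main fit). Of all genes, 20.6% were called higher in the atrium of shunt rats (24.8% in the main fit) and 30% in sham rats (27.6%). Newly called in sham rats were, among others, Aif1, Cd4 and Ctss, lower in the atrium, and Cd14, higher. Whether a replicate number marks the same animals in both chambers is not stated in the sources, so the main fit took no pairs. Deviations of same-numbered arrays from their group means correlated at -0.24 to 0.45, over 0.1 in 4 of 6 pairs within an operation and in 0 of 6 within a chamber. Each sham array correlated best with its own number in the other chamber, but not every shunt array did. Atrial shunt 1 stood at -0.24 with ventricular shunt 1 and at 0.45 with ventricular shunt 2. Whether a difference under about 0.5 on the log2 scale would be called is limited by 3 arrays per group, and probe sets near the floor, such as those of Cd163, Itgam and Vav1, give little signal above background.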
